A study of Gallus gallus with 6 samples.

Results

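Chromosome 1 is the longest chromosome of the chicken, and it held 6052 regions at which all 3 TCF21 immunoprecipitations gave a peak, 16.2% of the 37420 such regions in the genome. Peaks of the 3 lists that shared 1 bp or more were joined, and a joined stretch was kept as a region if every list had a peak in it. They are described in 3 segments, cut at 25 and 153 Mb by the midpoint of the region: a left segment with 695 regions, a middle segment with 4243 and a right segment with 1114. The cuts lie near places where the input DNA level had been seen to change in these same lists, so the input level of the segments is given as a description and was not tested.

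The samples were preadipocytes derived from chicken adipose tissue that stably overexpressed TCF21 (LV-TCF21), and all of them were kept in differentiation medium with 300 µM oleic acid for 24 h. The TCF21 immunoprecipitations (3 samples) used an anti-HA antibody, which recognises the HA tag and not TCF21 itself. The input DNA (3 samples) came from cells of the same kind with no antibody. The protocol also mentions control rabbit IgG, which was not analysed here, nor were cells without the overexpression or without oleic acid. Nothing in the labels tells separate cultures from repeated samples of 1 culture, so an SD over lists may be technical spread.

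TCF21 is a basic helix-loop-helix transcription factor of mesenchymal progenitor cells. Proteins of this class bind short E-box motifs as dimers with a partner of the same class. In fat tissue TCF21 is known as a marker of progenitor cells and of the white, mainly visceral, lineage. No source used here names the genome build of the positions, and neither sequence nor gene annotation of that build was used, so the regions are given by position only and no genes or motifs are assigned to them.

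Lists 1, 2 and 3 held 9736, 9056 and 9417 peaks on chromosome 1, which were 16.4%, 16.2% and 16.4% of each list. They joined into 13311 regions, of which 4992 had a peak of a single list, 2267 of a pair of lists and 6052 (45.5%) of every list. The 6052 regions took up 63.8%, 68.6% and 66.3% of the chromosome 1 peaks of lists 1, 2 and 3. They covered 3.74 Mb, or 1.91% of the 196.2 Mb up to the end of the last peak. In 5705 regions each list gave exactly 1 peak, and 347 regions (5.73%) held 4 to 7 peaks. The sequencing depth is unknown, and the pileup, the number of fragments stacked at a peak summit, is given in whole fragments. Pileups are therefore compared between places within a list.

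The lists placed their summits close together. The median distance between the summits of a region was 24 bp between lists 1 and 2, 24 bp between lists 1 and 3 and 26 bp between lists 2 and 3. Summits lay within 100 bp of each other in 90.9%, 89.97% and 90.1% of the regions for the same pairs. Across the 6052 regions, Spearman's rho between the pileups of these pairs was 0.896, 0.890 and 0.887, while the input levels at the same summits had a rho of 0.331, 0.311 and 0.343. These are descriptions across regions that share their libraries. The order of regions by pileup was thus more alike between lists than the order by input level.

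The middle segment was the densest. It held 33.1 regions per Mb, against 27.8 in the left segment and 25.8 in the right one. The left segment had 0.839 times the region density of the middle segment. The exact (Clopper-Pearson) 95% binomial interval of this ratio was 0.773 to 0.909. It covers counting error only, with regions taken as independent. The variance of the counts per 1-Mb window was 6.85 to 12.7 times their mean in the segments, so such intervals are likely too narrow. The middle segment had 1.29 times the density of the right segment (1.203 to 1.374). The ratio of left to right was 1.08, with an interval that includes equal densities (0.979 to 1.19). Put as shares, the left segment took 11.5% of the regions on 12.7% of the span, the middle segment 70.1% on 65.2% and the right segment 18.4% on 22.0%.

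Each list showed the same order. The left segment had 45.2, 41.3 and 44.5 peaks per Mb in lists 1, 2 and 3, the middle segment 52.5, 49.2 and 50.3, and the right segment 43.8, 40.04 and 43.1. The values of the middle segment did not overlap those of either outer segment, and the values of the outer segments overlapped each other. The left segment was below the middle one by 7.0 ± 1.03 peaks per Mb (mean difference within lists and SD, n = 3), and the middle one was above the right one by 8.34 ± 0.983. The left segment exceeded the right one by 1.34 ± 0.0567 peaks per Mb, with the same sign in 3 of 3 lists, but with both cuts moved 5 Mb to the right it was −2.83. The share of peaks that fell in regions of every list was 65.2 ± 3.34% in the left segment, 67.4 ± 2.17% in the middle and 62.9 ± 2.99% in the right. Of 13311 joined regions, those seen by every list made up 44.2%, 46.8% and 41.7% in the left, middle and right segments.

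Comparisons between segments over lists used an exact two-sided sign-flip permutation test on the differences within lists. With 3 lists this exact test cannot go below p = 0.25, so no difference could pass a threshold of 0.05. All 12 comparisons (peak density, median pileup, median peak width and share of peaks in regions, over 3 pairs of segments) gave that smallest exact value, p = 0.25 and adjusted p = 0.25, since every one had the same sign in all 3 lists. The size of a difference and its spread over lists are therefore what the data can give.

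**Figure D1:**
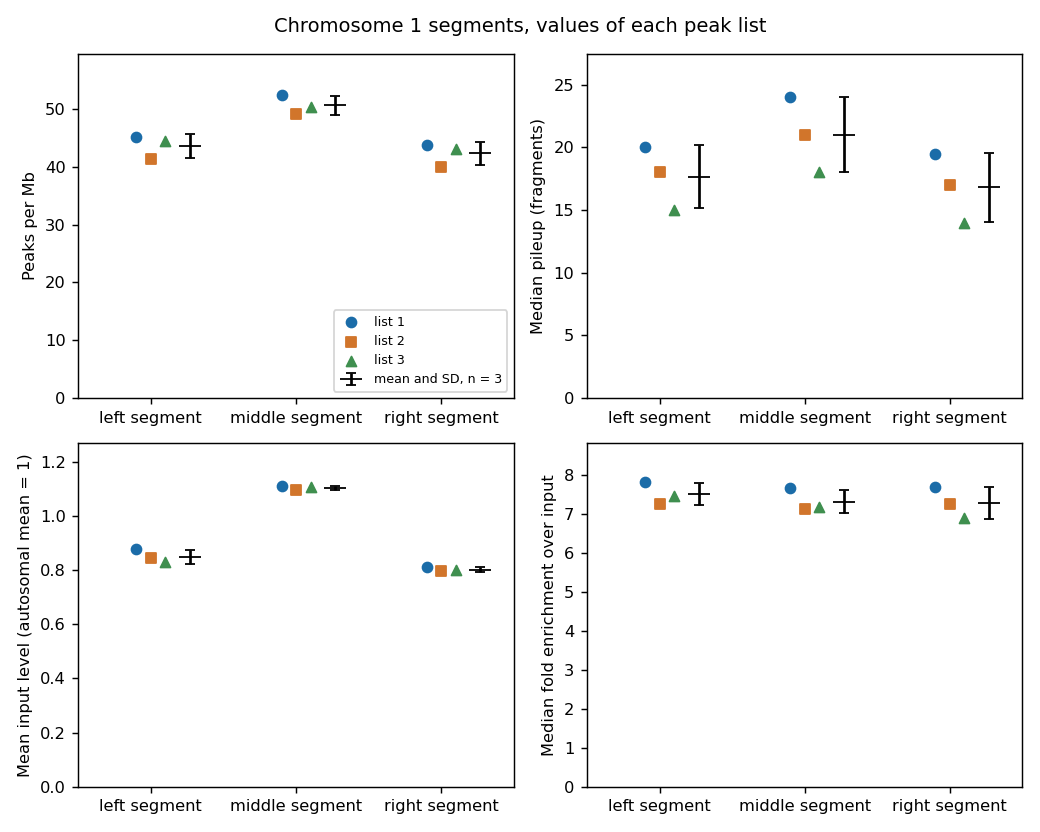
Peaks per Mb, median pileup in fragments, mean input level relative to the autosomal mean, and median fold enrichment over input in the left, middle and right segments of chromosome 1. Points are the 3 peak lists and bars the mean and SD (n = 3). Density, pileup and input level were highest in the middle segment in each list, while the median fold enrichment of a whole segment stayed between 6.91 and 7.83 in all lists.

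Pileups were also highest in the middle segment. The median pileup of the regions was 20, 18 and 15 fragments in the left segment (lists 1, 2 and 3), 24, 21 and 18 in the middle segment and 19.5, 17 and 14 in the right segment. Within every list the middle segment was the highest, although the ranges over lists overlapped: list 3 was lower throughout. The difference of left minus middle was −3.33 ± 0.577 fragments, and the middle segment exceeded the right one by 4.17 ± 0.289. The left segment exceeded the right one by 0.833 ± 0.289 fragments, a difference close to the step of a whole fragment in which pileups are counted.

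The tail of strong regions followed the same order. The 90th percentile of the pileup averaged 57.5 ± 5.32 fragments in the left segment, 66.0 ± 7.55 in the middle and 52.0 ± 6.25 in the right (SD, n = 3). A mean pileup of at least 100 fragments was reached by 20 regions (2.88%) in the left segment, 172 (4.05%) in the middle and 22 (1.97%) in the right. Of the 100 regions with the highest mean pileup on the chromosome, 9 lay in the left segment, 83 in the middle and 8 in the right. Of all regions, these segments held 11.5%, 70.1% and 18.4%.

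Weak regions were spread differently. Regions with a mean pileup under 15 fragments numbered 2000 and were denser in the outer segments, at 11.3 per Mb in the left, 9.70 in the middle and 10.99 in the right segment. Regions of 15 to 30 fragments had 8.60, 12.4 and 8.66 per Mb, those of 30 to 60 had 5.52, 7.0 and 4.19, and those of at least 60 had 2.36, 4.01 and 1.94. The left segment thus had 1.17 times the density of the middle segment among the weakest regions and 0.589 times among the strongest. These classes share 1 pileup limit over the whole chromosome, on which the input level also differed between segments.

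The input level at a summit is (pileup + 1) / fold enrichment − 1. Divided by its mean over all autosomal peaks of the list, it ranked the segments as the pileup did. Across regions, Spearman's rho between mean pileup and mean input level was 0.336. In the peaks of the regions the input level averaged 0.850 ± 0.0257 in the left segment, 1.10 ± 0.00771 in the middle and 0.802 ± 0.00872 in the right (SD, n = 3). The values were 0.878, 0.843 and 0.828 on the left, 1.11, 1.09 and 1.10 in the middle and 0.811, 0.795 and 0.799 on the right, so the middle did not overlap the outer segments. Peaks of regions on the other autosomes averaged 1.08 ± 0.00957. Over all peaks of a segment, in regions or not, the left had 0.800, 0.791 and 0.771. The middle then had 1.04, 1.03 and 1.02, and the right 0.756, 0.749 and 0.729. The ratio of left to middle was 0.770 ± 0.0209 for the input level and 0.860 ± 0.00419 for the mean pileup. The ratio of middle to right was 1.38 ± 0.00762 for the input level and 1.26 ± 0.00299 for the mean pileup. The part of the input level in the pileup and density differences was not tested.

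The fold enrichment, which sets the pileup against the input level, differed little between the segments. Its median was 7.53 ± 0.283 in the left segment, 7.33 ± 0.297 in the middle and 7.29 ± 0.403 in the right. The left segment was above the middle one by 0.201 ± 0.0746 in 3 of 3 lists, and the middle and right segments differed by 0.0310 ± 0.218, less than the spread between lists. All 3 lists reached a fold enrichment of 10 or more for 24.5%, 23.9% and 23.2% of the regions in the left, middle and right segments, or 6.80, 7.93 and 5.995 regions per Mb. Density therefore ranked the segments the same way by this measure, while the share of strongly enriched regions differed little. The input level sat at the lowest value the list allows in 10.5 ± 2.28% of left, 1.41 ± 0.219% of middle and 13.1 ± 2.33% of right regions, where the fold enrichment depends on that floor.

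The median width differed little between the segments. Joined regions were 220 to 2891 bp wide, with a median of 542 bp and quartiles at 421 and 733 bp. The median was 544 bp in the left segment, 541 bp in the middle and 543.5 bp in the right. The peaks of the separate lists were a median of 413 ± 18.1 bp wide in the left segment, 420 ± 18.0 bp in the middle and 407 ± 16.1 bp in the right. The left segment was below the middle one by 7.0 ± 3.46 bp and the middle one above the right by 12.7 ± 3.51 bp, but both signs turned when the joined width was used (3.0 and −2.5 bp). Across regions, wider ones had higher pileups, with a Spearman's rho of 0.568 between width and mean pileup. The median width was 431 bp for regions under 15 fragments and 850 bp for those of at least 60.

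Regions stood closer together in the middle segment. The median distance between the midpoints of neighbouring regions was 14.7 kb in the left segment (95% binomial interval of the median 12.7 to 17.1 kb), 10.2 kb in the middle (9.56 to 10.9 kb) and 13.7 kb in the right (12.1 to 15.01 kb). The mean distances were 36.0, 30.2 and 38.7 kb, well above the medians: dense clusters alternated with long empty stretches. The intervals of the medians treat distances as independent, so with such clusters they are likely too narrow. Another region lay within 10 kb of 62.3% of left, 71.0% of middle and 63.6% of right regions. At the other end, 14, 57 and 21 regions had no neighbour within 100 kb, which is 2.01%, 1.34% and 1.89% of each segment.

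**Figure D2:**
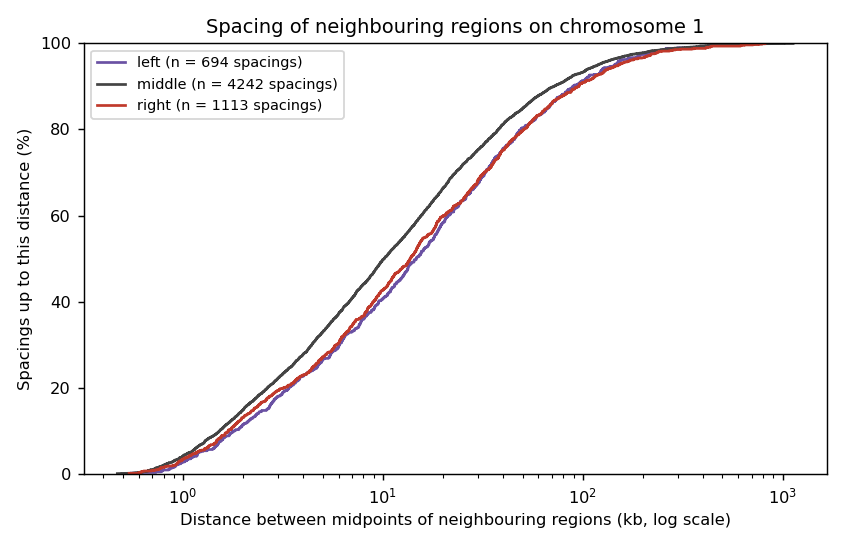
Cumulative share of the distances between neighbouring region midpoints (kb, log scale) in each segment of chromosome 1. The curve of the middle segment lies above the others over most of the range, with a median of 10.2 kb against 14.7 kb on the left and 13.7 kb on the right, and the curves of the outer segments run together.

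Strong regions had more neighbours than weak ones. The 656 regions with a mean pileup of at least 60 fragments had 7.09 other regions within 50 kb on average, against 5.34 for the 2000 regions under 15 fragments and 6.08 over all regions. No neighbour within that distance was found for 18 strong regions (2.74%) and for 134 weak ones (6.70%). The middle segment, where regions stood closer together, held 513 of the 656 strong regions and 1242 of the 2000 weak ones. Of all 6052 regions it held 4243 (70.1%). The means pool the segments, and the part of the segments in their difference was not tested. Regions of 1 cluster share neighbours, so these means carry no test.

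The number of regions per 1-Mb window ran from 1 to 88 over the 196 complete windows, with a median of 29. Every complete window held at least 1 region. The median was 27 in the 25 left windows (range 5 to 57), 30 in the 128 middle windows (1 to 88) and 23 in the 43 right windows (1 to 69). The segments therefore overlapped widely, and the counts varied more than their means in each: the variance was 6.85 times the mean on the left, 12.7 times in the middle and 11.6 times on the right. At least 50 regions were found in 1 left window (4.0%), 28 middle windows (21.9%) and 4 right windows (9.30%). At most 10 regions were found in 4 left (16.0%), 20 middle (15.6%) and 9 right windows (20.9%). The densest 20 windows held 22.9% of the regions, and 54 windows (27.6%) were enough to hold 50% of them.

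**Figure D3:**
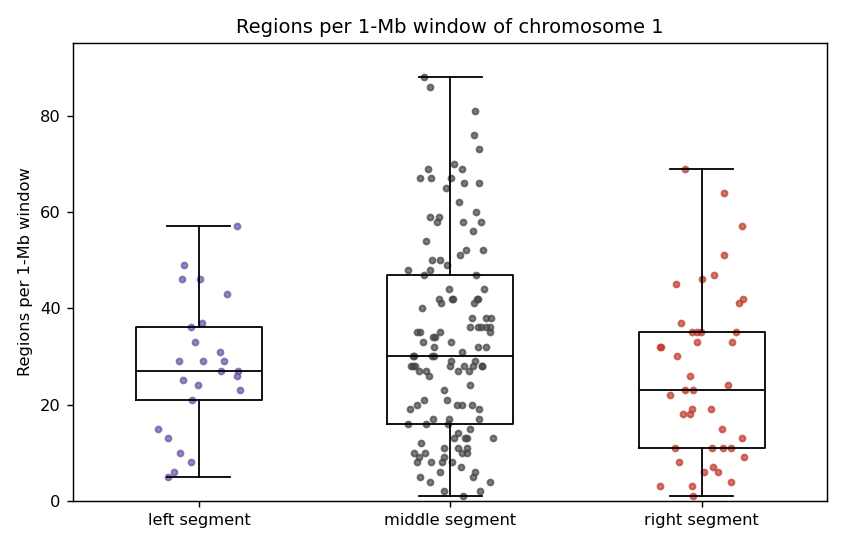
Number of regions in each complete 1-Mb window of chromosome 1, by segment. Each point is a window, boxes give the quartiles and whiskers the full range; the windows above 69 regions are all in the middle segment, and low windows occur in all 3 segments.

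By number of regions, the 6 densest 1-Mb windows were all in the middle segment, which held 128 of the 196 complete windows. The first, chr1:54000001-55000000, held 88 regions and 136, 124 and 124 peaks in lists 1, 2 and 3. Its neighbours on either side held 47 and 28 regions. Within it, 31 regions fell into the 100 kb of chr1:54100001-54200000, and the median distance between neighbours was 4.0 kb. Its highest region, chr1:54257018-54258460, had pileups of 191, 206 and 173 fragments.

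The next, chr1:110000001-111000000, held 86 regions and 130, 117 and 118 peaks. Unlike the others it had no region with a mean pileup of 100 fragments: its highest, chr1:110422113-110423598, had 105, 95 and 83. The window before it held 69 regions and the window after it 30. Each list had fewer peaks here than in the first window. The order of the counts of 88 and 86 depended on the joining rule. With summits required within 100 bp the second window was the densest, with 70 regions. The windows chr1:51000001-52000000, chr1:133000001-134000000, chr1:44000001-45000000 and chr1:106000001-107000000 followed with 81, 76, 73 and 70 regions. The right-segment window chr1:185000001-186000000 was close to these, with 69 regions. It averaged 105.7 peaks per list, above the windows at 44 Mb (103) and 106 Mb (99).

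Surroundings of these windows differed. The window at 133 Mb had only 6 regions in the window after it and 38 in the one before, and 22 of its 76 regions lay in 100 kb from 133800001 to 133900000. The window at 106 Mb held 23 regions in 100 kb from 106200001 to 106300000. In the window at 44 Mb the regions were spread more evenly, with at most 12 in 100 kb and a median spacing of 8.28 kb, and its neighbours held 59 and 67 regions. Median widths in the 6 windows were 522 to 621.5 bp, and their mean input levels 1.14 to 1.27 times the autosomal mean.

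In the left segment the densest window was chr1:3000001-4000000 with 57 regions and 85, 82 and 78 peaks. Its input level of 0.858 was close to the mean of its segment. In the right segment chr1:185000001-186000000 held 69 regions and 111, 101 and 105 peaks at an input level of 0.837. The mean of the right segment was 0.802. Within each outer segment, 1-Mb windows with more regions had higher input levels (Spearman's rho of 0.633 on the left and 0.785 on the right).

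The sparsest windows had very few regions but some peaks of single lists. The window chr1:100000001-101000000 in the middle segment held 1 region, with 1, 3 and 5 peaks in lists 1, 2 and 3. The window chr1:157000001-158000000 in the right segment held 1 region, with 4, 5 and 12 peaks. In the left segment chr1:16000001-17000000 was the emptiest, with 5 regions and 14, 7 and 17 peaks. List 3 had the most peaks in each of these windows.

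The longest stretch without a region of every list was chr1:27237473-28372810, 1135 kb long, with 2, 2 and 7 peaks of lists 1, 2 and 3 inside. Which stretch was the longest depended on the joining rule: with a reciprocal overlap of 50% it was one of 1219 kb that starts at 183793003. The stretch chr1:100460892-101477574 spanned 1017 kb and chr1:101480431-102272616 spanned 792 kb, with 2 regions in the 2.86 kb between them. Further long stretches were chr1:149473939-150391043 (917 kb), chr1:184175655-184994728 (819 kb) and chr1:156905821-157694765 (789 kb). Each of these 6 held between 11 and 16 peaks over the 3 lists together, which is 3.23 to 6.10 peaks per Mb and list, against 47.9 ± 1.73 on the whole chromosome. They were sparse in all lists and not fully empty.

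Stretches over 200 kb numbered 18 in the left, 92 in the middle and 37 in the right segment. They made up 22.998%, 26.3% and 31.1% of the span of these segments. Per 10 Mb there were 7.20, 7.19 and 8.56 of them, so the densest segment had about as many long empty stretches as the left one. Both stretches over 500 kb in the left segment were at most 564 kb long, while 13 in the middle and 7 in the right segment passed 500 kb. The longest stretch with no peak of any list was chr1:74607777-75204776, at 597 kb. Whether sequence is missing from the assembly in these stretches was not tested.

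In blocks of 10 Mb the densities of the segments overlapped. The 12 blocks that lay wholly in the middle segment held 16.7 to 45.5 regions per Mb, the 2 on the left 26.9 and 31.1, and the 3 complete ones on the right 21.3 to 36.6. The densest block was chr1:50000001-60000000, with 45.5 per Mb. The sparsest of all 20 blocks was chr1:150000001-160000000, which contains the second cut, with 11.8 per Mb, and the block before it, chr1:140000001-150000000, had 16.7. Blocks wholly in the middle segment had input levels that did not overlap those of wholly outer blocks, while left and right blocks overlapped. The levels were 0.819 and 0.899 in the left blocks, 0.978 to 1.15 in the middle blocks and 0.782 to 0.827 in the right blocks. In 1-Mb windows the segments overlapped, with 0.633 to 1.30 on the left, 0.749 to 1.498 in the middle and 0.596 to 0.900 on the right. The highest left value was that of the first 1 Mb, and the next left window had 0.967. The highest middle value was that of chr1:152000001-153000000. That window contains a region, chr1:152858918-152860063, with 8.48 to 11.6 times the mean input level.

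Across the 187 complete windows of 1 Mb with at least 5 regions, windows with more regions had a higher mean input level, with a Spearman's rho of 0.555 (Pearson's r = 0.530). The same relation had a rho of 0.633 within the 25 left windows, 0.696 within 123 middle windows and 0.785 within 39 right windows. The number of regions was less tightly related to the median pileup (rho = 0.297) and to the median width (rho = 0.351). The windows share their libraries and neighbours, so these values are descriptions. Peak counts of 2 lists in the same windows had a rho of 0.972 to 0.980.

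Close to the cuts, the input level differed between the sides while the density of regions differed little. Peaks per Mb averaged higher on the low-input side over 5 Mb, and on the high-input side over 10 Mb. The stretches compared were chosen after the data were seen. In the 5 Mb left and right of the first cut the input level was 0.786 ± 0.0518 and 1.009 ± 0.0214 (SD, n = 3). The region density there was 23 and 21 per Mb, and the median pileup 19.0 ± 2.65 and 18.3 ± 2.08 fragments. The lists had 37.7 ± 2.12 and 33.8 ± 2.55 peaks per Mb there. The median fold enrichment was 8.22 ± 0.254 on the left side and 6.83 ± 0.131 on the right side, and the lists did not overlap. Fold enrichment is tied to the input level by the formula above, and the cuts lie near input steps. Its difference across a cut is therefore not a result separate from the input difference. Over 10 Mb the median fold enrichment was 7.53 ± 0.0633 on the left and 7.10 ± 0.263 on the right. Over 10 Mb on either side the density was 19.6 on the left and 28.1 on the right, and the median pileup 17.3 ± 2.47 and 20.3 ± 3.06 fragments. The lists had 33.2 ± 2.16 and 43.9 ± 1.57 peaks per Mb in these 10 Mb. The bin from 5 to 7.5 Mb past the cut held 32 regions per Mb.

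The second cut lies in a sparse stretch. In the 5 Mb left and right of it there were 11.8 and 12 regions per Mb, with median pileups of 17.3 ± 1.15 and 16.7 ± 3.51 fragments. The median fold enrichment was 6.82 ± 0.269 on the left side and 7.08 ± 0.367 on the right side, with overlapping lists. The input level was 1.23 ± 0.0477 on the left side and 0.722 ± 0.0833 on the right side. One region, chr1:152858918-152860063, raised the left value: it had an input level 11.6, 10.3 and 8.48 times the autosomal mean and pileups of 118, 112 and 113 fragments, at a fold enrichment of 5.81 ± 1.77. Without it the left side averaged 1.08 ± 0.0219, still above the right side in each list. Over 10 Mb on either side there were 17 regions per Mb on the left and 9.9 on the right, and 26.6 ± 1.80 and 19.1 ± 2.01 peaks per Mb. The median fold enrichment over those 10 Mb was 6.74 ± 0.140 on the left and 7.35 ± 0.349 on the right, and the lists did not overlap. As at the first cut, this is not separate from the input difference. The 2.5-Mb bins up to 12.5 Mb past the cut held at most 16.4 regions per Mb, and the bin from 12.5 to 15 Mb held 32.4.

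**Figure D4:**
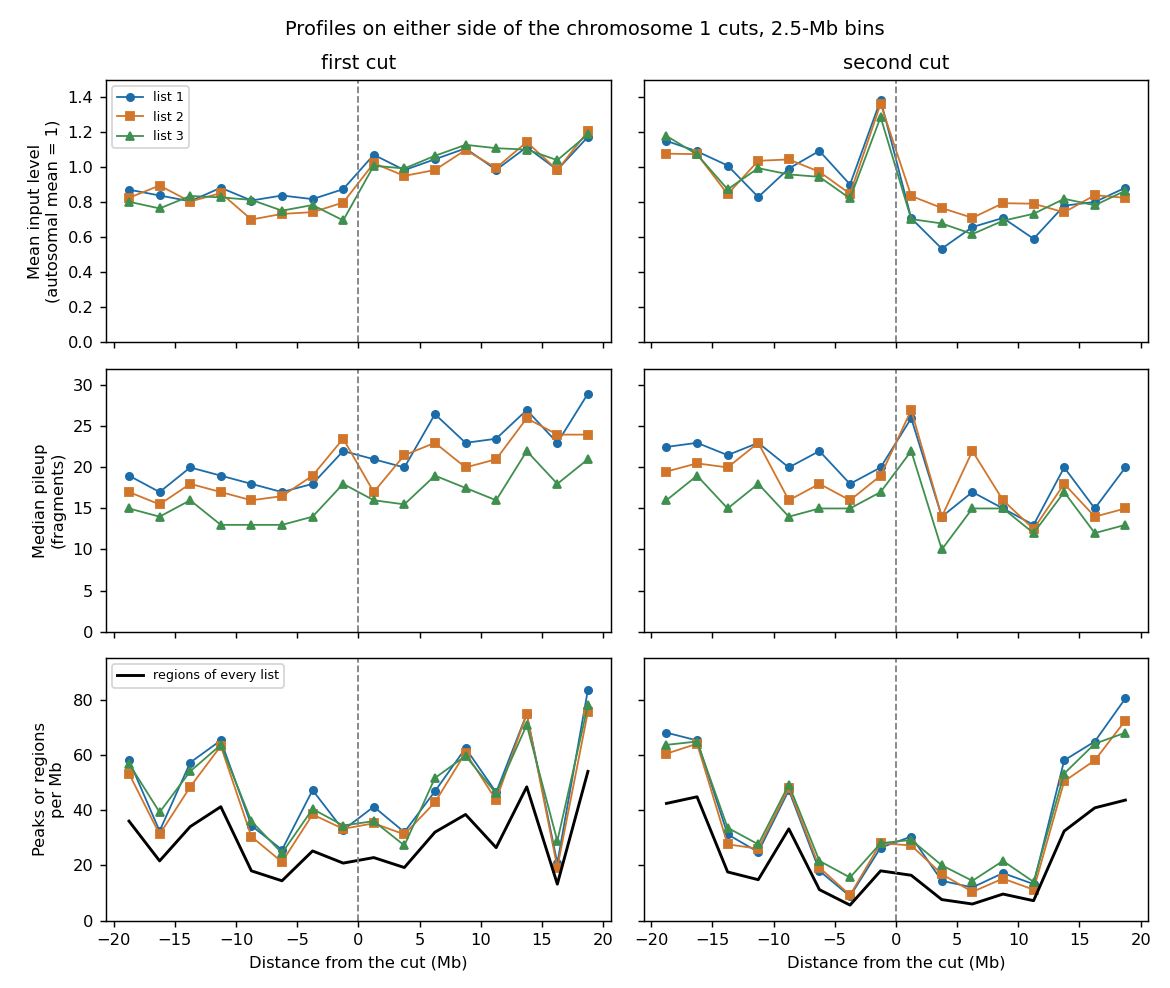
Mean input level, median pileup and peaks per Mb of each list in 2.5-Mb bins against the distance from the first and the second cut, with the density of regions as a black line. The input level of all 3 lists is higher on the middle-segment side of both cuts close to the cut. The density of regions changes little from the bin before a cut to the bin after it. At the second cut the median pileup rises from 20, 19 and 17 fragments (lists 1, 2 and 3) to 26, 27 and 22. In the next bin it is 14, 14 and 10. At the first cut the pileups overlap, with 22, 23.5 and 18 before and 21, 17 and 16 after. The high bin just left of the second cut includes the region with 8.48 to 11.6 times the mean input level.

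The strongest regions of the middle segment stood highest together with 1 region of the left end. In the middle segment chr1:133644734-133646333 had pileups of 240, 237 and 217 fragments in lists 1, 2 and 3 and a fold enrichment of 64.9 ± 16.0. It was the highest of the chromosome by mean, in lists 1 and 3, and its list 1 and 2 values were within 3 fragments of each other. It lies in a dense window named above.

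The 4 others of the middle segment were chr1:130335829-130337038 (233, 215 and 211 fragments), chr1:128222793-128224063 (221, 221 and 202), chr1:99370074-99371400 (217, 219 and 180) and chr1:37897302-37898775 (214, 199 and 191). The 3 highest of the segment lie within 5.42 Mb. The region chr1:99370074-99371400 stands in the sparse block from 90 to 100 Mb, which held 21.1 regions per Mb, less than 1 Mb before the emptiest window.

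In the left segment chr1:193477-194491, near the chromosome end, had 239, 239 and 214 fragments, equal to the top region of the middle segment within the spread between lists. Its neighbour chr1:93036-94136 had 205, 201 and 176, so a pair of very strong regions stood 100.4 kb apart in the first 1 Mb, a window with 46 regions and an input level of 1.30. The region chr1:6894331-6895663 had 203, 201 and 172 fragments. The remaining ones, chr1:14431963-14433095 and chr1:9287783-9288672, averaged 151 ± 12.4 and 146 ± 12.2.

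The right segment had no region at that level. Its highest, chr1:175237999-175239772, had 182, 170 and 155 fragments, and chr1:175413797-175415052, 175.5 kb away, had 166, 166 and 145. The regions chr1:172250443-172252392, chr1:185046082-185047174 and chr1:174128678-174129888 averaged 156 ± 14.6, 156 ± 18.8 and 155 ± 27.8 fragments, which are not resolved from each other. Of these 5 regions, 4 lay within 3.16 Mb.

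**Figure D5:**
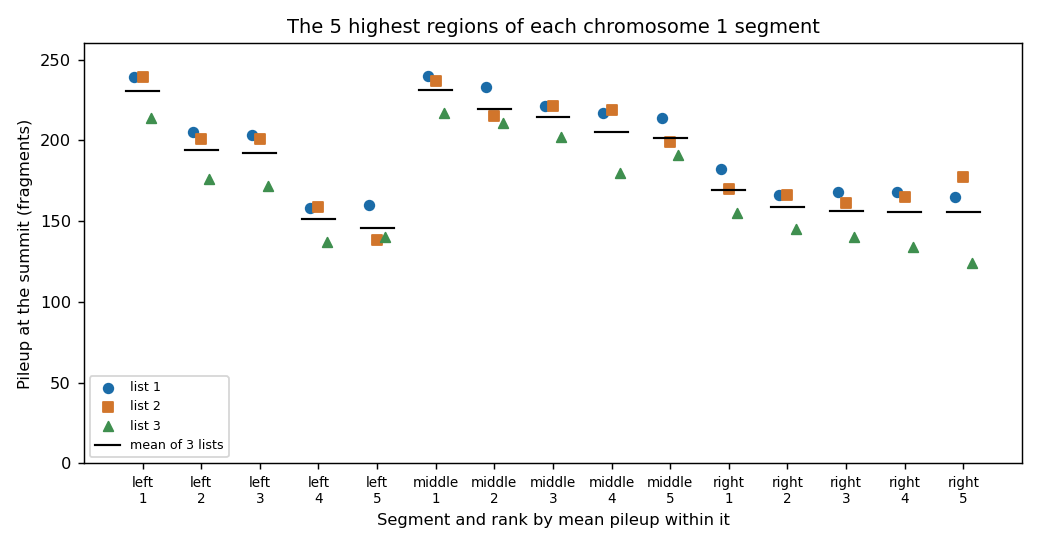
Pileup at the summit in fragments for the 5 regions with the highest mean pileup in each segment of chromosome 1, in order of mean within the segment. Points are the 3 lists and black lines their mean; list 3 is the lowest in 14 of the 15, and all values of the right segment stay at or below 182 fragments.

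By fold enrichment the order was different and less stable. The highest of the left segment and of the chromosome was chr1:6894331-6895663, with 89.7, 65.8 and 70.0 in lists 1, 2 and 3. In the middle segment chr1:144648961-144649708 had 52.7, 72.7 and 83.6, although it lies in the sparse block from 140 to 150 Mb. In the right segment chr1:175237999-175239772 had 74.3, 48.0 and 71.7. The spread between lists was larger than the gaps between these regions. The region chr1:61657219-61658373 was steadier, with 61.8, 72.5 and 69.4, and chr1:10682103-10683546 averaged 61.8 ± 10.03.

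The 5 widest regions had mean pileups from 27.7 to 146 fragments, against a median of 20 over all regions. The widest, chr1:51793449-51796339, measured 2891 bp and held 6 peaks with pileups of 100, 114 and 89 fragments at the strongest ones. The next, chr1:54041925-54044592, measured 2668 bp but had only 25, 35 and 23 fragments. Its summits were spread over 798 bp between lists, so these pileups are not all of the same site. The region chr1:60920959-60923542, of 2584 bp, was the strongest of the 5 with 145, 163 and 131 fragments. The others were chr1:57439093-57441619 (2527 bp, 102 ± 16.3 fragments) and chr1:3464495-3466849 (2355 bp, 59.7 ± 5.13 fragments), which was the only one outside the middle segment. In chr1:3464495-3466849 the summits were spread over 1093 bp between lists, so its SD also mixes sites. Of the 21 regions of at least 2 kb, 1 lay in the left, 16 in the middle and 4 in the right segment. That is 0.144%, 0.377% and 0.359% of the regions of these segments, which held 11.5%, 70.1% and 18.4% of all regions.

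At the low end, chr1:10013872-10014267 had the smallest mean pileup, with 6, 4 and 4 fragments, and its input level was at the floor in every list. The region chr1:81536549-81537111 had 7, 5 and 4. At such counts a difference of 1 fragment moves the fold enrichment by a large part of its value. The first region of the chromosome, chr1:1298-1833, had 40, 42 and 41 fragments at a fold enrichment of 5.31, 12.1 and 8.81. The last, chr1:196063802-196064230, had 41, 26 and 29 fragments at 21.6, 14.03 and 17.2. Its input level was at the floor in every list, while that of the first region averaged 2.23 ± 0.940.

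Set against the next largest chromosomes, chromosome 1 was much like chromosome 2 and sparser than chromosome 3. It had 49.6, 46.2 and 48.0 peaks per Mb, a mean of 47.9 ± 1.73, against 48.3 ± 1.74 on chromosome 2, 52.0 ± 2.31 on chromosome 3 and 59.2 ± 1.99 on all other autosomes together. The difference was −0.337 ± 0.0197 from chromosome 2, −4.03 ± 0.703 from chromosome 3 and −11.3 ± 0.810 from the other autosomes, with chromosome 1 lower in 3 of 3 lists each time. The span of a chromosome was taken as the end of its last peak. Regions of chromosome 1 stood a median of 11.2 kb apart, against 11.6 kb on chromosome 2, 10.8 kb on chromosome 3 and 9.37 kb on the other autosomes.

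Pileup and width differed little from the other chromosomes. The median pileup averaged 19.7 ± 2.52 fragments on chromosome 1, 20.3 ± 3.06 on chromosome 2, 19.7 ± 2.52 on chromosome 3 and 20.7 ± 2.52 on the other autosomes. Peaks of the regions were a median of 417 ± 18.0 bp wide on chromosome 1, against 415 ± 17.5, 407 ± 20.1 and 423 ± 20 bp on the same sets. The mean input level was 1.02 ± 0.00899 on chromosome 1, 1.08 ± 0.00504 on chromosome 2, 1.02 ± 0.00594 on chromosome 3 and 1.08 ± 0.00957 on the other autosomes. These are levels of peaks in regions, divided by the mean over all autosomal peaks, in regions or not. Over all its peaks chromosome 1 had 0.955, 0.946 and 0.934 in lists 1, 2 and 3. The 12 exact two-sided sign-flip permutation tests of these differences gave p = 0.25, the smallest value that 3 lists allow, to p = 1, with adjusted p from 0.333 to 1.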

How the data were processed

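The assay was chromatin immunoprecipitation with sequencing, in 3 TCF21 immunoprecipitations and 3 input DNA samples. The authors deposited 3 peak lists, 1 per immunoprecipitation, which keep the number in their own peak names; that number was not tied to a sample. Per the submitters' processing notes, the tools included Trimmomatic 0.36, STAR 2.5.3a, MACS2, bedtools and HOMER, with no roles stated. No source used here names the build, the calling threshold or the control behind each list. Per the file headers, a peak has a pileup (a deposited signal, whole fragments in 100% of values), a fold enrichment (a deposited ratio over the control), deposited −log10 p-values and q-values, and a width. The smallest −log10 p is 2.00.

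The control is called input after the labels. A Poisson p-value recomputed from pileup and input fell within 1% plus 0.01 (−log10) of the deposited value in 99.9% of peaks. A level within 1% of a list's lowest counts as the floor. The peak of highest fold enrichment stood for a list with several peaks in a region. Differences were formed within lists and tested by exact sign-flip permutation, with Benjamini-Hochberg adjustment over 12 tests for segments and 12 for chromosomes. Joining, formula and test were tested on simulated data. The simulated fold enrichments were made with the same formula, so that part checked the code only. Simulated regions lay apart, with at most 1 peak per list. The null rate of the test was simulated with more values than there are lists. Medians of 1-Mb windows needed 5 regions. Depth is unknown, so intervals cover the counting of regions only, and they treat regions or distances between neighbours as independent. Python 3.11.15, numpy 2.4.6, pandas 2.3.3 and scipy 1.17.1 were used.

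The chromosome, cuts and measures were chosen with earlier results of these data known. Regions were named by rule: per segment the 5 highest by mean pileup and the 3 highest by mean fold enrichment, and on the chromosome the 5 widest, the 2 lowest by pileup, the first, the last, and any whose input reached 5 times the autosomal mean in all lists. Windows and gaps named by rule were the 6 densest windows, the densest and emptiest window per segment and the 6 longest gaps. Other positions were picked after their values were seen. The planned motif and gene steps were not run, for want of a genome of the same build.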

Additional observations from a re-analysis of the deposited data

How the results depend on the processing

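Of 200 recomputed differences, 11 changed sign and 5 were 0 under one setting and not under the other, all 5 in pileup or width against chromosome 2 or 3. No paired analysis was possible because no list gives values of single input samples and no list number is tied to a replicate; this concerns immunoprecipitation against input by replicate number, and the tests within lists pair places of 1 list. For each change given here, the cause was not tested.

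Under a q-value limit of 1e-05 there were 3840 regions, at 16.8, 21.5 and 15.3 per Mb in the left, middle and right segments, a middle-to-right ratio of 1.403, median spacings of 27.5, 16.7 and 24.6 kb (left minus middle 10.8 kb, middle minus right −7.97 kb) and a longest gap of 1812 kb. The stronger 50% of each list gave 3224 regions, at 14.6, 17.8 and 13.4 per Mb. Regions of at least 2 lists had median spacings of 10.5, 7.73 and 9.34 kb (middle minus right −1.61 kb). Leaving out 1 list at a time gave 12.6 to 13.3, 9.02 to 9.29 and 11.2 to 12.2 kb. The longest gap, from 27237473 otherwise, started at 100460892 under the q-value limit, with the stronger 50% and without list 1 (1017 kb), at 149473939 with at least 2 lists (891 kb), at 183793003 with a reciprocal overlap of 50% (1219 kb) and at 74607777 between peaks of any list (597 kb). Without list 2 it started at 27237468.

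With both cuts moved 5 Mb left, the middle-to-right density ratio was 1.38 and left-to-right 1.19, and the median spacing of left minus right was −0.696 kb, against 0.989 kb. Moved 5 Mb right, they were 1.19 and 0.967, and the left segment had fewer peaks per Mb than the right, by −2.83. Width differences changed sign: left minus middle was 3.0 bp by joined width, middle minus right −2.5 bp by joined width and −0.833 bp under the q-value limit, and left minus right −4.0 bp under that limit.

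The input difference of left minus middle was −0.231 with cuts moved left, −0.229 moved right, −0.221 by medians and −0.215 without floor peaks. For middle minus right it was 0.270, 0.294, 0.252 and 0.257, and 0.293 with regions of at least 2 lists, 0.283 over all peaks and 0.290 to 0.302 without 1 list. Chromosome 1 minus chromosome 3 was −0.00494 to 0.00462 without 1 list. In alternatives chosen after seeing the data, 5 Mb on either side of the first cut gave a left-minus-right density of 2.0 per Mb, against −8.5 over 10 Mb, and a pileup of 0.667 fragments, against −3.0. At the second cut 5 Mb gave −0.2 per Mb, against 7.1, and an input difference of 0.507, against 0.364 (0.354 and 0.311 without the high-input region).

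The densest window was the one from 110000001 in place of the one from 54000001 with a reciprocal overlap of 50% (73 regions), summits within 100 bp (70), the q-value limit (59), the stronger 50% (52) or without list 3 (101). With windows moved by 0.5 Mb it started at 105500001 and held 94.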
